A study of Mus musculus with 6 samples.

Results

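Chemokines are small secreted proteins, and their receptors sit in the membrane of the cells they attract. The chemokine genes of the mouse epididymis were compared between mice without occludin, a protein of tight junctions, and wild-type mice. The members were taken by symbol from the count table, as every CC, CXC, CX3C or XC chemokine ligand (names that start with Ccl, Cxcl, Cx3cl or Xcl), every receptor named Ccr or Cxcr, and Ackr1 to Ackr4, the atypical receptors. This gave 59 genes of the 57127 listed, of which 39 encode ligands and 20 encode receptors. The wild-type group (WT) was whole epididymis of adult C57BL/6 mice, and the Ocln-KO group was whole epididymis of adult Ocln-/- mice of the same strain, with 3 libraries each. The deletion was constitutive, so every cell of the animal carried it, and the mice were bred from heterozygous pairs. The study's methods speak of RNA taken from 3 pairs of mice and also of pooled RNA, so n counts libraries and p-values measure the spread between these libraries.

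RNA was depleted of rRNA and sequenced, and the libraries held between 30646424 and 38870780 counts. Counts were scaled with edgeR's TMM factors to counts per 1000000 (CPM), so that 3 counts equal between 0.0802 and 0.0942 CPM. Ocln had 85.5 ± 6.51 CPM in WT (SD, n = 3) and 15.1, 15.3 and 14.9 CPM in the Ocln-KO libraries, a log2 fold change of -2.50 ± 0.09 (standard error). Genotypes were compared by the quasi-likelihood test of edgeR, adjusted after Benjamini and Hochberg over all genes tested, which gave Ocln an adjusted p = 0.000108. Counts per gene do not show which exons the remaining Ocln reads come from. One label of the sample records names prefrontal cortex as the tissue of extraction, while the tissue field and the methods give epididymis. The summed level of 10 genes of epididymal principal cells, among them Crisp1 and Lcn5, lay between 23388 and 36832 CPM in all 6 libraries. On the first principal component of all genes, which held 47.2% of the variance, Ocln-KO replicate 3 stood apart from the other Ocln-KO libraries.

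Chemokine ligands bind to G protein-coupled receptors on leukocytes and on some tissue cells, and the cells move towards the higher concentration. Inflammatory ligands are made on demand in damaged or infected tissue, homeostatic ligands are made steadily and place resident cells, and ligands with the ELR motif attract neutrophils. Atypical receptors bind chemokines without signalling through G proteins, and take them up from the tissue. The epididymis holds a dense network of resident macrophages and dendritic cells around its epithelium, next to sperm that carry antigens made only after puberty.

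Promoters of the members that passed the test between genotypes and of an interferon-induced ligand are shown first, because the results return to these genes. RefSeq held promoters for 43 of the 59 genes, 50 promoters in all on GRCm38.p6, each with 250 bases before the transcript start and 50 bases from the start on. Capitals mark matches on either strand to 4 motifs: the NF-kB motif, the interferon response core GAAANNGAA, the STAT motif TTCNNNGAA and the AP-1 motif TGANTCA. The first lies at chr9:124101933-124102232 on the plus strand and belongs to the receptor gene Ccr2, with 1 interferon response core at position -86, counted from the transcript start. The annotated Ccr2 gene begins at 124101950, ahead of this transcript start, so the motif lies within the annotated gene.
Ccr2: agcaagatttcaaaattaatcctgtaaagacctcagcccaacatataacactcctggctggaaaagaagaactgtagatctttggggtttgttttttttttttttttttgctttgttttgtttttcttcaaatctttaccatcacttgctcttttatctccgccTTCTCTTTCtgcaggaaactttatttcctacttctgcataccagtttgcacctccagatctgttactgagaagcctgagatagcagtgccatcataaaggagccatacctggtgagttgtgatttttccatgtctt
The second lies at chr13:56296502-56296801 on the minus strand and belongs to the ligand gene Cxcl14, with 1 STAT match at position -191 and 1 interferon response core at -172. In RefSeq the Cxcl14 gene reaches to 56296811, ahead of this transcript start, so both motifs lie within the gene as annotated there.
Cxcl14: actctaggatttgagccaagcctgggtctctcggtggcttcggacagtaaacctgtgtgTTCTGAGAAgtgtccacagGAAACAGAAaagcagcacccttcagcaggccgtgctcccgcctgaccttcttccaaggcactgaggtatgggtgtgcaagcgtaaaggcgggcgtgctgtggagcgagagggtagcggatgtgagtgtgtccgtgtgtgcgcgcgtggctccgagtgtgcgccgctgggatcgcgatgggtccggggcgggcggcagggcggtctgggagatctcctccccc
The third lies at chr1:90203730-90204029 on the plus strand and belongs to the atypical receptor gene Ackr3, with none of the 4 motifs in this window.
Ackr3: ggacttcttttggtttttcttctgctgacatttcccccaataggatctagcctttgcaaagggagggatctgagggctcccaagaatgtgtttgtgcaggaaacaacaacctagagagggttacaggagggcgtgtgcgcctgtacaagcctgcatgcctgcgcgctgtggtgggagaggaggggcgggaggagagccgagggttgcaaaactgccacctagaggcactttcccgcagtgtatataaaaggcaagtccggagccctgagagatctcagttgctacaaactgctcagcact
The last lies at chr5:92348840-92349139 on the minus strand and belongs to the ligand gene Cxcl10, with an interferon response core at position -213, 3 NF-kB matches at -159, -104 and -103, and an AP-1 match at -74.
Cxcl10: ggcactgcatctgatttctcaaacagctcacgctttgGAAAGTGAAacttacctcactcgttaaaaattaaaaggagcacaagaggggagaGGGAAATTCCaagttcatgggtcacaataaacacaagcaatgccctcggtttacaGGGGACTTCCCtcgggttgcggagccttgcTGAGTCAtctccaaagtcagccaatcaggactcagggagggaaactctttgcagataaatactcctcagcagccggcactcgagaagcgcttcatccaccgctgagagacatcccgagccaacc
Over the 50 promoters of the members, 24% held the NF-kB motif, against 8.46% of the 32851 promoters of all genes. The interferon response core was in 16% of member promoters and 8.56% of all promoters, and the AP-1 motif in 18% and 7.81%. For the STAT motif the shares were 6% and 8.3%. The NF-kB matches included Cxcl1, Cxcl2 and Cxcl3, neutrophil attractants that were at or near 0 counts here, as well as Cxcl10. A match of letters is a description of these windows and not a binding site.

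Of the 59 genes, 50 had counts and 26 of these passed the filter on low counts and were tested, 17 ligands and 9 receptors. The 9 genes without a count were Ccl20, Ccl21a, Ccl21b, Ccl21c, Ccl26, Cxcl3, Cxcl15, Cxcl17 and Cxcr1. Between the genotypes, 3 of the 26 tested genes (11.5%) passed a false discovery rate (FDR) of 0.05, where 8.95% of all 19691 tested genes did. Ccr2 and Cxcl14 were higher in Ocln-KO, where 3.91% of all tested genes were higher, and Ackr3 was lower, where 5.04% were lower. Ccr2 was the single member that also had a fold change over 2, a limit passed by 1.49% of all tested genes upwards and, as a fold change under 0.5, by 1.7% downwards. The share of called members was thus close to that of all genes. The call of Ackr3 was lost when libraries were scaled by total counts alone (log2 fold change -0.50, adjusted p = 0.0549 by edgeR), a scaling under which 1175 of all tested genes were higher and 674 lower, in place of 770 and 992. DESeq2 called 6 members, with Ccl27a and Cxcr4 among the added ones, which were all higher in Ocln-KO, while it called 16.8% of all tested genes.

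The log2 fold change of Ocln-KO against WT was above 0 in 20 of the 26 tested genes (76.9%), against 50.9% of all tested genes. Its median over the members was 0.28, and over all tested genes 0.01. The 6 tested CC and CXC receptors had the highest median, 1.20, with a range from 0.02, for Ccr1, which was below 0 under some settings, to 1.31. They are the part of 16 such receptors that passed the filter. Cxcr3 (22, 16 and 8 counts in WT) and Cxcr6 (28, 9 and 40) could pass it through their Ocln-KO levels, which can raise this median. The 17 tested ligands had a median of 0.17 and a range from -1.45 to 1.72, with 13 above 0 and 4 below. The 3 tested atypical receptors had a median of -0.29, with 2 of them below 0. An unadjusted p under 0.05 was reached by 8 members (30.8%) and by 29.1% of all tested genes, and the 5 members among these that were not called, among them Ccl12, Ccl27a, Cxcr4 and Cxcr6, were all on the higher side. Without Ocln-KO replicate 3, the library that stood apart, edgeR tested 28 members, of which 18 were above 0 and 10 below, with a median of 0.42. The tested set differed, so this median cannot be set against 0.28. With at least 10 counts in every library, 15 of 20 tested members were above 0, with a median of 0.14.

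**Figure D1:**
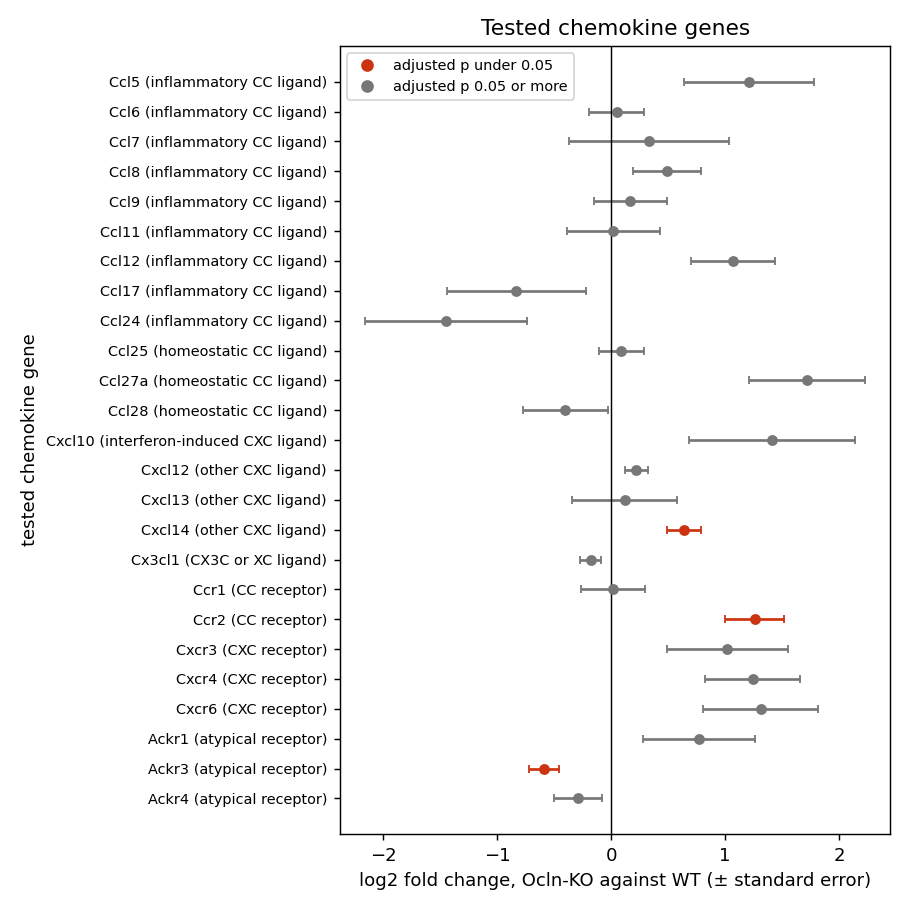
Log2 fold change of Ocln-KO against WT (x axis, with standard errors as bars) for 25 tested chemokine genes (y axis, ordered by role), with genes at an adjusted p under 0.05 in red. The points of the CC and CXC receptors lie between 0.02 and 1.31, and the called genes are Ccr2 at 1.26, Cxcl14 at 0.64 and Ackr3 at -0.59.

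Ccr2, the receptor that draws monocytes out of the blood towards ligands such as Ccl2, Ccl7 and Ccl12, lies on chromosome 9 from 124101950 to 124113557. It had 15.6, 15.3 and 12.2 CPM in the WT libraries and 24.9, 28.5 and 49.9 CPM in the Ocln-KO libraries. Every Ocln-KO library was above every WT library, and Ocln-KO replicate 3 was the highest. Ccr2 rose 2.40-fold, or 1.26 on the log2 scale (standard error 0.26, edgeR adjusted p = 0.0313). Without Ocln-KO replicate 3 the log2 fold change was 0.89 and the gene was again called by edgeR (adjusted p = 0.0126). The call was lost by edgeR without WT replicate 1 (adjusted p = 0.113), WT replicate 2 (0.0826), WT replicate 3 (0.123) or Ocln-KO replicate 2 (0.0537), and its log2 fold change then lay between 1.16 and 1.38. Few genes of any kind were called in these fits: 0.113%, 1.13%, 0.276% and 2.76% of all tested genes, against 8.95% with all 6 libraries. More cells that carry the receptor and more of its RNA in each cell cannot be told apart in whole tissue.

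Of 4 related inflammatory ligands, Ccl2, Ccl7, Ccl8 and Ccl12, 3 were tested and none was called. Ccl12, a monocyte attractant, had 0.829, 0.733 and 1.1 CPM in WT against 1.68, 2.54 and 1.39 in Ocln-KO, and the genotypes did not overlap. A log2 fold change of 1.07 (standard error 0.37, edgeR adjusted p = 0.106) did not pass the test. Ccl8 had 3.59 ± 0.807 CPM in WT against 5.06 ± 1.53 in Ocln-KO (SD, n = 3), and Ccl7 had 0.489 ± 0.306 and 0.621 ± 0.497 CPM, with overlap between genotypes for both. Ccl2, the best known Ccr2 ligand, was too low to test, with 2, 5 and 7 counts in WT against 4, 16 and 2 in Ocln-KO.

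Ccl5, a ligand of T cells and macrophages that binds Ccr1 and Ccr3, had 0.449 ± 0.270 CPM in WT against 1.04 ± 0.447 in Ocln-KO and overlapped. Ccr1, a receptor for inflammatory ligands on monocytes and neutrophils, had 2.46 ± 0.0850 CPM in WT against 2.49 ± 0.661 in Ocln-KO, a log2 fold change of 0.02 that was below 0 with limma-voom, with the replicate block and without Ocln-KO replicate 3 (-0.22).

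Ccl6 and Ccl9, related ligands that macrophages and other myeloid cells make and that act through Ccr1, were the most abundant inflammatory ligands in CPM. Ccl6 had 11.5, 10.9 and 8.81 CPM in WT against 7.70, 10.1 and 14.5 in Ocln-KO. For Ccl9 the levels were 7.89, 8.82 and 4.85 CPM in WT against 5.58, 7.16 and 11.5 in Ocln-KO. The genotypes overlapped in both genes, and in each the highest library was Ocln-KO replicate 3. Log2 fold changes were 0.05 for Ccl6 (standard error 0.24, edgeR adjusted p = 0.911) and 0.17 for Ccl9 (standard error 0.32, edgeR adjusted p = 0.767), and both turned below 0 without that library, to -0.22 and -0.17.

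The other inflammatory CC ligands that could be tested bind the receptors of eosinophils and of T helper cells. Ccl11, or eotaxin, attracts eosinophils through Ccr3 and had 0.831 ± 0.187 CPM in WT against 0.843 ± 0.250 in Ocln-KO. Ccl24, a second ligand of Ccr3, had 0.853 ± 0.376 CPM in WT against 0.312 ± 0.228 in Ocln-KO, and its log2 fold change of -1.45 (standard error 0.71, edgeR adjusted p = 0.221) was the lowest of all tested members. Ccl17, which binds Ccr4 of T cells, had 2.04 ± 0.514 CPM in WT against 1.14 ± 0.958 in Ocln-KO and did not pass the test either (log2 fold change -0.83, standard error 0.61, edgeR adjusted p = 0.411). Ccl22, the other Ccr4 ligand, had 7, 1 and 4 counts in WT against 8, 7 and 16 in Ocln-KO, the opposite direction from Ccl17. No member of the inflammatory CC class, 15 genes with 9 tested, was called.

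Homeostatic CC ligands were represented by Ccl25, Ccl27a and Ccl28. Ccl25, a ligand of Ccr9 that guides T cells to thymus and gut, had 5.53, 5.71 and 5.63 CPM in WT against 7.11, 6.03 and 4.88 in Ocln-KO. The fitted log2 fold change was 0.09 (standard error 0.20, edgeR adjusted p = 0.793), with the WT libraries inside the range of the Ocln-KO libraries. The gene shares 204 exon bases with Elavl1 on the other strand, which had a mean of 107 CPM in WT against 106 in Ocln-KO. Ccl28, a ligand of epithelia in gut and glands, had 1.97 ± 0.609 CPM in WT against 1.49 ± 0.452 in Ocln-KO. Ccl27a, a ligand of Ccr10 best known from skin, had the largest log2 fold change of any tested member, 1.72 (standard error 0.51, edgeR adjusted p = 0.0753), and was not called. It had 0.642, 2.34 and 0.700 CPM in WT against 4.46, 3.14 and 4.5 in Ocln-KO, so that WT replicate 2 lay nearest to the Ocln-KO libraries. Without WT replicate 2 its log2 fold change was 2.58 and it was called (edgeR adjusted p = 0.0422). That was the strongest result with 1 library left out. Over all such fits the log2 fold change of Ccl27a went down to 1.41, and its edgeR adjusted p up to 0.213. Ccl27b, a near-identical copy, had no count in WT and 8, 0 and 2 counts in Ocln-KO, and how reads were divided between the copies is not stated, so both values are uncertain.

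Among CXC ligands, Cxcl12 was the most abundant in CPM. It encodes the ligand of Cxcr4 and Ackr3 that stroma makes to hold leukocytes and progenitor cells in place. Its levels were 70.9, 60.4 and 71.2 CPM in WT against 85.3, 75.8 and 74.0 in Ocln-KO, each above the WT libraries. The log2 fold change of 0.22 (standard error 0.10, edgeR adjusted p = 0.206) did not pass the test.

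Cxcl14, a ligand of epithelia and fibroblasts that acts on monocytes and dendritic cells, lies on chromosome 13 from 56288643 to 56296551. In WT it had 17, 14.2 and 14.1 CPM, and in Ocln-KO 19.8, 24.7 and 26.2 CPM. No WT library reached the lowest Ocln-KO library. It rose 1.56-fold, at a log2 fold change of 0.64 (standard error 0.15, edgeR adjusted p = 0.0391). The edgeR call was lost without any one WT library (adjusted p from 0.104 to 0.136), or any one of Ocln-KO replicates 2 (0.0971) and 3 (0.0665), with log2 fold changes from 0.56 to 0.73. Of all tested genes, edgeR called at most 1.13% without a WT library, and 2.76% and 8.31% without Ocln-KO replicates 2 and 3. Summed levels of the fibroblast and smooth muscle markers lay between 3610 and 3879 CPM in WT and between 3458 and 7091 CPM in Ocln-KO, and their part in the level of Cxcl14 was not tested.

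Ackr3, an atypical receptor that binds and takes up Cxcl12, lies on chromosome 1 from 90203980 to 90216751. Its levels were 18.5, 17.6 and 16.5 CPM in WT against 12.6, 12.2 and 10.2 in Ocln-KO. All Ocln-KO libraries lay below all WT libraries, and the spread within each genotype was small. Ackr3 fell by 0.59 on the log2 scale (standard error 0.13, edgeR adjusted p = 0.0380), with a WT level 1.5 times that of Ocln-KO. Without WT replicate 1, 2 or 3 the edgeR adjusted p was 0.140, 0.102 or 0.106, and without Ocln-KO replicate 2 or 3 it was 0.0793 or 0.0597, so that these calls were lost, while the log2 fold change stayed between -0.63 and -0.50. Cxcr4, the signalling receptor of Cxcl12, had 0.829, 0.938 and 1.32 CPM in WT against 1.31, 2.61 and 3.37 in Ocln-KO. Ocln-KO replicate 1 lay just under WT replicate 3, and the log2 fold change of Cxcr4 was 1.24 (standard error 0.42, edgeR adjusted p = 0.1), so it was not called. Without Ocln-KO replicate 1 it was 1.54 and called (edgeR adjusted p = 0.0458). With each library left out in turn, the log2 fold change of Cxcr4 went down to 0.93, and its edgeR adjusted p up to 0.260. For Cxcl12 and its receptors, the data thus hold a single call, the lower Ackr3, and log2 fold changes above 0 for the ligand and for Cxcr4 that did not pass.

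**Figure D2:**
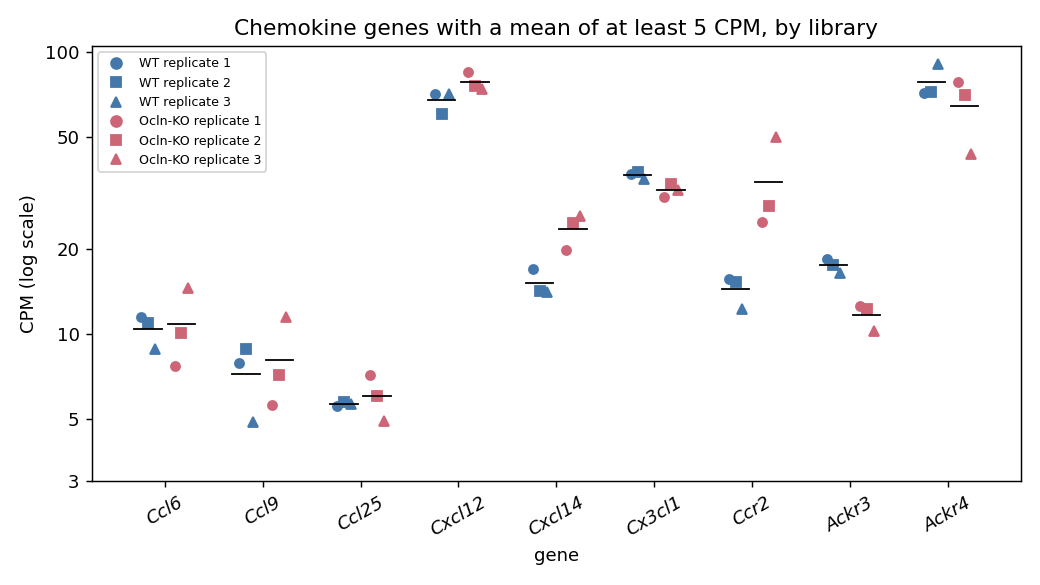
Level of 9 chemokine genes whose mean over the 6 libraries reached 5 CPM (CPM on a log axis), with 1 point per library, WT in blue, Ocln-KO in red and a line at each group mean. The genotypes separate in Cxcl12, Cxcl14, Cx3cl1, Ccr2 and Ackr3, and overlap in Ccl6, Ccl9, Ccl25 and Ackr4.

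Ackr4, which clears Ccl19, Ccl21 and Ccl25, had 71.9, 72.4 and 91.0 CPM in WT against 78.7, 70.7 and 43.4 in Ocln-KO. The genotypes overlapped, and Ocln-KO replicate 3 was the lowest library. The log2 fold change of -0.29 (standard error 0.21, edgeR adjusted p = 0.416) did not pass. Ackr4 shares 479 exon bases with Acad11 on the opposite strand, a gene at 64.3 CPM in WT against 55.7 in Ocln-KO, and the strand setting of the counting is not stated. Ackr1, which moves chemokines across venules, had 0.715 ± 0.387 CPM in WT against 1.23 ± 0.218 in Ocln-KO, and shares 361 exon bases with Cadm3 on the same strand. Ackr2, the scavenger of inflammatory CC ligands in lymphatic vessels, was too low to test, with 23, 5 and 13 counts in WT against 1, 8 and 4 in Ocln-KO.

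Cx3cl1, or fractalkine, a ligand anchored in the membrane of epithelium and endothelium, had 36.9, 37.5 and 35.4 CPM in WT against 30.6, 34.1 and 32.3 in Ocln-KO. Its libraries did not overlap, yet the log2 fold change of -0.18 (standard error 0.09, edgeR adjusted p = 0.217) did not pass the test. Its receptor Cx3cr1, carried by resident macrophages, had 5.59, 6.45 and 6.79 CPM in WT against 7.51, 12.1 and 23.4 in Ocln-KO. The log2 fold change of Cx3cr1 was 1.19 (standard error 0.37, edgeR adjusted p = 0.0842). Xcl1, the gene of lymphotactin, a chemokine of T and NK cells, had 0, 1 and 0 counts in WT against 3, 9 and 6 in Ocln-KO. Xcr1, its receptor on cross-presenting dendritic cells, had 0.518 ± 0.148 CPM in WT against 1.30 ± 0.431 in Ocln-KO (log2 fold change 1.33, edgeR adjusted p = 0.0938).

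Cxcl9, Cxcl10 and Cxcl11, which interferon induces and which attract T and NK cells through Cxcr3, had 26, 23 and 17 counts in sum in the WT libraries. In the Ocln-KO libraries the sums were 114, 68 and 31 counts. The sums did not overlap, and Ocln-KO replicate 3 was the lowest of its group. Cxcl10 had 0.695, 0.615 and 0.242 CPM in WT against 2.28, 1.57 and 0.296 in Ocln-KO. The fitted log2 fold change was 1.41 (standard error 0.73, edgeR adjusted p = 0.245), with Ocln-KO replicate 3 inside the WT range. Cxcl10 shares 133 exon bases with Art3 on the opposite strand, a gene at 20.8 CPM in WT. Cxcl9 had 0, 2 and 8 counts in WT against 32, 2 and 15 in Ocln-KO.

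Cxcl11 had no count in the 3 WT libraries and 9, 16 and 6 counts in the Ocln-KO libraries. The level in Ocln-KO was 11.5-fold above a floor of 3 counts over the WT group. This multiple takes the Ocln-KO counts without error, so it is not a lower bound. Cxcl11 was under the filter of the test, and edgeR called it when no count filter was applied. The gene is annotated as a polymorphic pseudogene in the reference strain and shares 1582 exon bases with Gm2673 on the opposite strand, so which of these transcripts the counts come from is uncertain. Cxcr3, the receptor, had 0.588, 0.469 and 0.215 CPM in WT against 0.530, 0.847 and 1.21 in Ocln-KO, with overlap (log2 fold change 1.02, standard error 0.53, edgeR adjusted p = 0.246).

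Cxcr6, a receptor of tissue T and NKT cells, had 0.748, 0.264 and 1.08 CPM in WT against 1.40, 1.82 and 1.98 in Ocln-KO. The genotypes did not overlap, and the log2 fold change of 1.31 (standard error 0.50, edgeR adjusted p = 0.133) was the highest of the 9 tested receptors. Cxcl16, its ligand, was low in both genotypes, with 4, 2 and 7 counts in WT against 7, 5 and 5 in Ocln-KO. Cxcl13, the B cell attractant, had 1.06 ± 0.508 CPM in WT against 1.15 ± 0.257 in Ocln-KO, and its receptor Cxcr5 had 5, 0 and 0 counts in WT against 6, 1 and 3 in Ocln-KO. Cxcr5 shares 110 exon bases with Bcl9l on the opposite strand, a gene at 200 CPM in WT.

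In 7 tested members every Ocln-KO library was above every WT library (26.9%), as in 16.9% of all tested genes. Among these were Ccl12, Ccl27a, Cxcl12, Cxcl14, Ccr2 and Cxcr6. On the lower side, Cx3cl1 and Ackr3 did not overlap (7.69%), against 19.4% of all tested genes.

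Another 24 members had counts but were too low to test, with at most 32 counts in any library. Their counts summed to 53, 44 and 56 in the WT libraries and to 107, 114 and 126 in the Ocln-KO libraries, or 1.42, 1.29 and 1.51 CPM against 3.34, 3.58 and 3.73 CPM. The summed CPM of all 12355 genes that were too low to test lay between 784.5 and 951.6 in WT and between 850.0 and 898.0 in Ocln-KO. Of the 24 members, 18 (75%) had the larger summed count in Ocln-KO, against 44.9% of all genes too low to test. There was no overlap between genotypes in 9 of them (37.5%), each higher in Ocln-KO, while 4.34% of all such genes were higher without overlap and 3.71% lower. The members had a median summed count of 16.5 over the 6 libraries and all genes too low to test a median of 7, and the shares were not matched for this.

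Several of these low members are receptors known from lymphocytes and dendritic cells. Ccr6, a receptor of B cells and Th17 cells, had 0, 1 and 1 counts in WT against 5, 4 and 18 in Ocln-KO. Ccr7, which leads dendritic and T cells to lymph nodes, had 1, 5 and 2 counts in WT against 7, 9 and 6 in Ocln-KO. Its ligands Ccl21a, Ccl21b and Ccl21c had no count in any library. How reads that map to several places were treated is not given, so the 0 counts of these copies are uncertain. Ccl19, another Ccr7 ligand, had 3, 2 and 0 counts in WT and none in Ocln-KO, too few to bound a fold change. Ccr9, the receptor for Ccl25, had 5, 2 and 3 counts in WT against 5, 18 and 14 in Ocln-KO, and shares 1932 exon bases with an antisense transcript. Ccl4 had 0, 0 and 1 counts in WT against 1, 6 and 10 in Ocln-KO, and Ccl3, its close relative, 1, 4 and 0 in WT and 0, 0 and 3 in Ocln-KO.

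Ccr3 and Ccr4 had no count in WT. In Ocln-KO, Ccr3 had 1, 1 and 8 counts, 3.71-fold above a floor of 3 counts over the WT group. Ccr4 had 2, 1 and 3 counts, 2.22-fold above that floor, and both multiples take the Ocln-KO counts without error. The remaining members showed no such order: Ccl1 had 6 counts in WT against 5 in Ocln-KO over all libraries, Ccr10 had 9 and 11, and Ccr8 had 2 and 0.

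Genes of the neutrophil axis were at or near 0 in both genotypes. Cxcl1, Cxcl2, Cxcl3, Cxcl5 and Cxcl15, ligands with the ELR motif, had 1, 0 and 8 counts in sum in the WT libraries and 4, 1 and 1 in the Ocln-KO libraries. Cxcr1 had no count, and Cxcr2, the main neutrophil receptor, had no count in WT and 0, 0 and 2 in Ocln-KO. A count of 0 allows up to 3 counts, or at most 0.0942 CPM, and this covers counting error only.

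**Figure D3:**
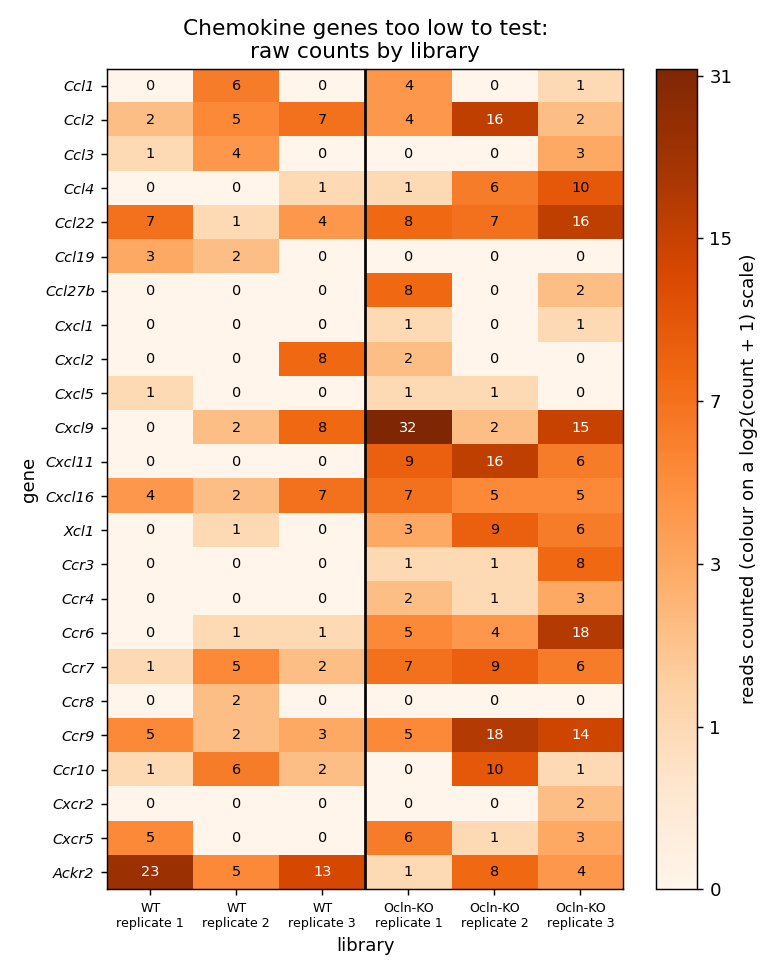
Raw read counts in each of the 6 libraries (columns) of the 24 chemokine genes that had counts but were too low to test (rows), with colour on a log2(count + 1) scale. Cxcl11, Ccr3, Ccr4, Ccl27b, Cxcl1 and Cxcr2 have counts in Ocln-KO libraries alone, Ccl19 and Ccr8 in WT libraries alone, and the highest count is 32, for Cxcl9 in Ocln-KO replicate 1.

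Summed over members, the ligands had 164, 153 and 153 CPM in WT against 179, 182 and 179 in Ocln-KO. The CC and CXC receptors had 24.1, 23.1 and 20.8 CPM in WT against 34.7, 46.1 and 71.3 in Ocln-KO. The atypical receptors had 92.2, 90.4 and 109 CPM in WT against 92.8, 84.2 and 54.9 in Ocln-KO. Ligand and receptor sums did not overlap between genotypes, whereas the sums of the atypical receptors did. Most of the CC and CXC receptor sum was Ccr2, at a mean of 14.4 of 22.6 CPM (WT) and 34.5 of 50.7 (Ocln-KO). The mean ligand sum moved from 157 (WT) to 180 CPM (Ocln-KO), with Cxcl12 from 67.5 to 78.4 and Cxcl14 from 15.1 to 23.6. Cx3cl1, another abundant ligand, went from 36.6 to 32.3 CPM. These sums thus mainly follow a few abundant genes and do not show a shift of a whole class. Ocln-KO replicate 3 was the highest library for the CC and CXC receptors and the lowest for the atypical receptors, which are mainly Ackr4 and Ackr3.

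Summed levels of several leukocyte marker lists were also highest in Ocln-KO replicate 3. Of 12 macrophage and monocyte markers, all tested, 11 had a log2 fold change above 0 and none was called by edgeR, although 8 had an unadjusted p under 0.05. By DESeq2, 5 of them were called. Ly6c2, a marker of the inflammatory monocytes that carry Ccr2, had 0.219 ± 0.0909 CPM in WT against 0.655, 4.80 and 1.04 in Ocln-KO (log2 fold change 3.28, edgeR adjusted p = 0.0503). The 12 markers summed to 297, 280 and 279 CPM in WT against 312, 355 and 514 in Ocln-KO. Of 9 dendritic cell markers, 8 were tested, all above 0 and none called by edgeR, with 5 at an unadjusted p under 0.05 and 4 called by DESeq2, and their sum lay between 122 and 146 CPM in WT and between 180 and 321 CPM in Ocln-KO. T and NK cell markers, 8 tested of 13, had a median log2 fold change of 1.28 and sums between 3.66 and 4.93 CPM in WT and between 7.48 and 12.8 CPM in Ocln-KO. Klrb1c, an NK cell receptor, was the called one among them (log2 fold change 2.62, edgeR adjusted p = 0.0301), and Cd2 and Trac were at 0 in every library. Klrb1c had 0.291 ± 0.148 CPM in WT against 1.82 ± 0.728 in Ocln-KO (SD, n = 3). Genes this low in WT could pass the filter through their Ocln-KO levels, which can raise the median of the list. With at least 10 counts in every library, 0 genes of this list were called. The B and plasma cell markers summed to between 3.66 and 5.16 CPM in WT and between 7.34 and 12.5 CPM in Ocln-KO. Among them Jchain, the joining chain of antibodies, was called higher (2.15, edgeR adjusted p = 0.0137), and Igha and Ighm were at 0. Why Igha, Ighm, Cd2 and Trac had no count was not tested, so their zeros are not read as absent transcripts. Without Jchain the other 9 genes summed to 3.66, 2.93 and 2.67 CPM in WT and to 3.52, 3.17 and 5.57 CPM in Ocln-KO, which overlapped, and Mzb1 and Pax5 had log2 fold changes of -0.09 and -0.06. Of the eosinophil and mast cell markers, the mast cell proteases Cpa3 and Cma1 were called higher (2.56 and 2.35, edgeR adjusted p = 0.0373 and 0.0241). Both were low in WT, at means of 0.377 and 0.213 CPM, and could likewise pass the filter through Ocln-KO. The eosinophil marker Prg2 was at 0 and Epx near 0. The list summed to between 17.9 and 19 CPM in WT and between 14.4 and 19.8 CPM in Ocln-KO. Most of that sum was Kit, a receptor of mast cells and other cells, with 16.4, 16.6 and 18.1 CPM in WT against 14.4, 12.9 and 11.4 in Ocln-KO (log2 fold change -0.40, edgeR adjusted p = 0.0963), and the other 8 genes summed to 1.58, 1.29 and 0.889 CPM in WT and to 5.42, 6.27 and 3.02 CPM in Ocln-KO. The part of these cells in the levels of the chemokine receptors was not tested.

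The sum of the neutrophil markers was set by 1 gene. It lay between 119 and 261 CPM in WT and between 71.3 and 78.7 CPM in Ocln-KO, and Ltf, lactoferrin, which epithelia also secrete, made up most of it and was called lower (log2 fold change -1.27, edgeR adjusted p = 0.0354). The other 9 genes summed to 1.66, 3.11 and 1.72 CPM in WT and to 2.90, 2.76 and 4.94 CPM in Ocln-KO, and among them Csf3r, the receptor of the growth factor G-CSF, had a log2 fold change of 1.30 (edgeR adjusted p = 0.176) and Mmp8, a collagenase, of -0.80 (0.594). S100a8, S100a9 and Ly6g were at or near 0 in both genotypes, as were the ligands and receptors of neutrophils.

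Ccr2 was also set against these markers within each library, a description chosen after the values were seen. Per summed CPM of the macrophage and monocyte markers, Ccr2 was 0.0525, 0.0546 and 0.0437 in WT and 0.0798, 0.0803 and 0.0971 in Ocln-KO. The highest means of that list were those of Mertk (69.4 CPM in WT against 65.6 in Ocln-KO), Lyz2 (59.7 against 102), Mrc1 (47.7 against 57.2) and Csf1r (35.2 against 53.5). Ly6c2 added little to the sum, at 0.219 against 2.16 CPM. The ratio therefore does not give Ccr2 per cell that carries it. Per summed CPM of the dendritic cell markers, Ccr2 was 0.107, 0.111 and 0.1 in WT and 0.138, 0.152 and 0.155 in Ocln-KO. Most of the dendritic cell sum was 1 gene, Cd74, with 124, 115 and 104 CPM in WT against 150, 156 and 273 in Ocln-KO. That ratio therefore mainly sets Ccr2 against Cd74. The genotypes did not overlap in either ratio. Per summed CPM of the T and NK cell markers, Ccr2 was 4.26, 3.57 and 2.47 in WT and 3.33, 2.30 and 3.90 in Ocln-KO, and the genotypes overlapped.

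**Figure D4:**
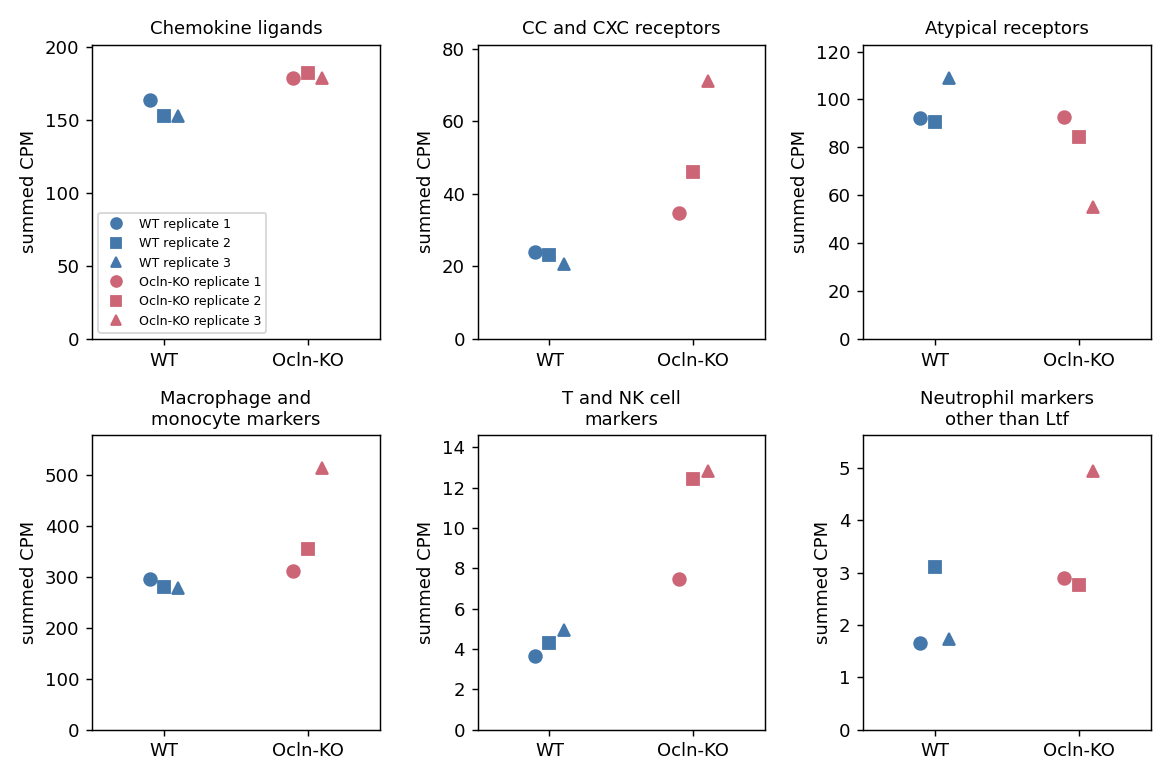
Summed level in CPM (y axes, from 0) of 3 chemokine gene classes and 3 marker lists, with 1 point per library in WT (blue) and Ocln-KO (red). The CC and CXC receptors, the macrophage markers and the T and NK cell markers are highest in Ocln-KO replicate 3, at 71.3, 514 and 12.8 CPM, while the atypical receptors are lowest there, at 54.9 CPM.

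Compared as RPKM, which is CPM divided by the exon length in kilobases, with all exons of a gene joined, Ackr4 had the highest level of the members in WT, at 14.6 ± 2.02 RPKM (SD, n = 3). Cx3cl1 followed at 9.31 ± 0.273, Cxcl14 at 8.27 ± 0.906, Cxcl12 at 8.25 ± 0.752 and Ccl8 at 7.02 ± 1.58 RPKM. Ccl6 had 5.79 ± 0.781, Ackr3 5.24 ± 0.306, Ccl17 3.96 ± 1.0, Ccl9 2.36 and Ccr2 2.13 RPKM. From Cx3cl1 down to Ackr3 the libraries of each gene overlapped with those of the next, and so did those of Ccl17, Ccl9 and Ccr2 in turn, while Ackr4 lay above Cx3cl1 and Ackr3 above Ccl17 in every library. With the length of the principal transcript in place of all exons, a choice made after seeing the data, Ackr4 was again highest, at 32.8 RPKM, and Cxcl12 came next at 21.5, ahead of Cx3cl1 at 11 and Cxcl14 at 8.27 RPKM.

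Many members lie side by side in the genome, and neighbours were compared on GRCm38. A receptor cluster on chromosome 9 includes Ccr9, Cxcr6, Ccr1, Ccr3 and Ccr2. Of these, Ccr1, Ccr2 and Cxcr6 were tested, with log2 fold changes of 0.02, 1.26 and 1.31, and Ccr3 and Ccr9 had the larger summed count in Ocln-KO. The cluster of monocyte and eosinophil attractants on chromosome 11, from 82035571 to 82305690, holds Ccl2, Ccl7, Ccl11, Ccl12, Ccl8 and Ccl1, with 4 tested genes between 0.02 and 1.07. The nearby cluster from 83525778 to 83664683 holds Ccl5, Ccl9, Ccl6, Ccl3 and Ccl4, with 3 tested genes between 0.05 and 1.21. On chromosome 5, Cxcl9, Cxcl10 and Cxcl11 lie within 92321347 to 92365485 and all had the larger summed count in Ocln-KO, whereas the 5 ELR ligand genes within 90759360 to 90905938 were too low to test. On chromosome 8, from 94745590 to 94812036, Ccl17 and Cx3cl1 had log2 fold changes of -0.83 and -0.18, and Ccl22 beside them had more counts in Ocln-KO.

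Downstream of the receptors, a list of 46 genes of chemokine signalling outside the members was followed, of which 42 were tested. edgeR called 5 of them higher (11.9%, against 3.91% of all tested genes) and 1 lower (2.38%, against 5.04%) in Ocln-KO, and the median log2 fold change of the list was 0.19. limma-voom called 3 higher, and 9.03% of all tested genes in either direction. edgeR called none in either direction without WT replicate 1, 2 or 3, where it called 0.113%, 1.13% and 0.276% of all tested genes. Among the higher genes, the exchange factor genes Vav1 and Dock2, which link the receptors to Rac in leukocytes, rose from 2.78 ± 0.725 to 6.62 ± 1.69 CPM and from 10.9 ± 1.29 to 20.9 ± 6.71 CPM (SD, n = 3), by log2 fold changes of 1.25 and 0.95 (edgeR adjusted p = 0.0393 and 0.0459). Grk3, a kinase that switches activated receptors off, had 13.1, 13.2 and 15.1 CPM in WT against 25.9, 19.3 and 28.7 in Ocln-KO, a log2 fold change of 0.83 (edgeR adjusted p = 0.0281). Pik3r5, the regulatory subunit of the PI3K that G proteins activate, was the lower one, with 15.4, 12.8 and 14.8 CPM in WT against 5.14, 8.10 and 8.05 in Ocln-KO (log2 fold change -1.01, standard error 0.20, edgeR adjusted p = 0.0299). The platelet chemokine genes Pf4 and Ppbp were at 0 in every library, and the scavenger Ccrl2 had 2.79 ± 0.457 CPM in WT against 2.60 ± 0.878 in Ocln-KO.

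Each setting of the test was followed for the 3 called members and for Ccl27a and Cxcr4, which DESeq2 added. Ccr2, Cxcl14 and Ackr3 were called by edgeR, DESeq2 and limma-voom with all 6 libraries, and the edgeR adjusted p of each stayed above 0.05 when WT libraries were left out. Over all settings the adjusted p of Ccr2 ran from 5.09e-05 to 0.123, of Cxcl14 from 0.00343 to 0.136 and of Ackr3 from 0.00428 to 0.140, with the lowest value from DESeq2 in each. For Ccl27a it ran from 0.00732 to 0.213, and for Cxcr4 from 0.0453 to 0.260. Without Ocln-KO replicate 1, edgeR called 5 members, among them Ackr3, Ccr2, Cxcl14 and Cxcr4, or 17.9% of the 28 tested, against 8.14% of all tested genes. Without Ocln-KO replicate 3 it called Ccr2 and Cxcl11 (7.14%, against 8.31%). Without Ocln-KO replicate 2 it called none, against 2.76% of all tested genes, with 8 members (28.6%) at an unadjusted p under 0.05, against 24.9%.

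**Figure D5:**
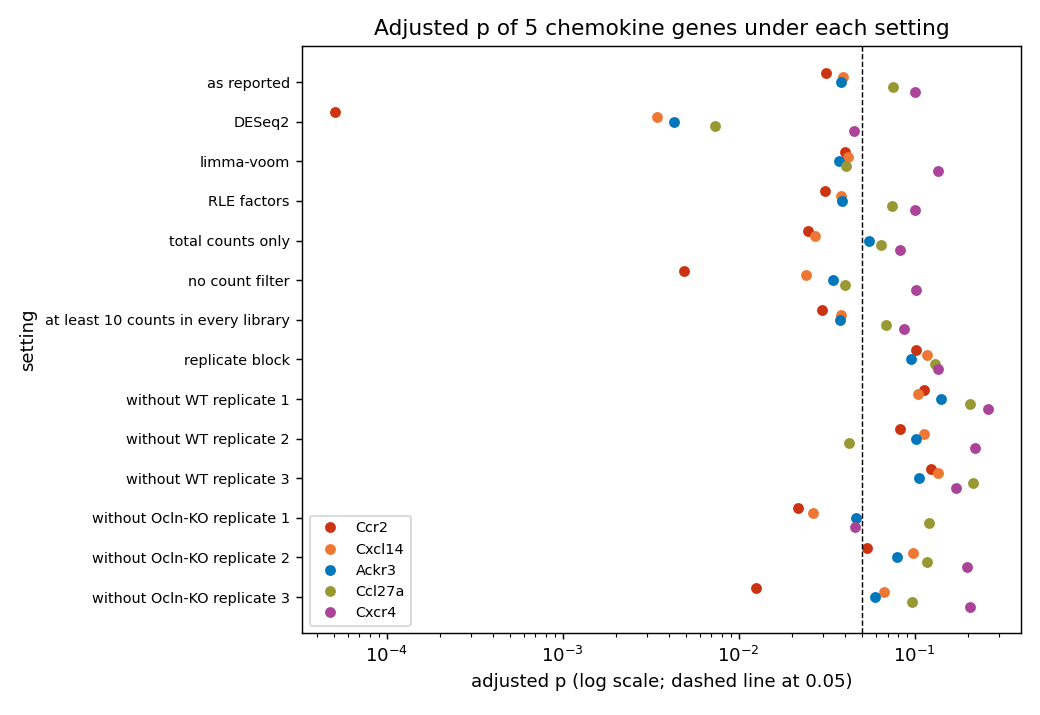
Adjusted p (x axis, log scale, with a dashed line at 0.05) of Ccr2, Cxcl14, Ackr3, Ccl27a and Cxcr4 under each setting of the test (y axis). Ccr2 runs from 5.09e-05 with DESeq2 to 0.123 without WT replicate 3, and all 5 genes lie above 0.05 with the replicate block.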

How the data were processed

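Whole-epididymis RNA of 3 WT and 3 Ocln-KO libraries was analysed. Per the study's methods, Trizol RNA was sequenced as directional libraries after removal of rRNA. The authors aligned reads to GRCm38 with HISAT2 2.0.4 and assigned them to genes with HTSeq. The deposited value of a gene is its raw count, with no normalization by the authors. The strand setting and the treatment of reads that map to several places are not given in the sources used here. Columns were matched to samples by name, with 0 unmatched. Of the symbols, 27 had become dates (0.145% of counts).

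With edgeR 4.0.16 in R 4.3.3, filterByExpr kept 19691 of the 32046 genes with a count, and TMM factors, estimateDisp, glmQLFit and glmQLFTest followed. A gene was called at a Benjamini-Hochberg FDR under 0.05. A standard error is the absolute log2 fold change over the root of F. Effective library sizes ran from 31860861 to 37410050, and limits of 3 counts cover counting error only. No exact two-sided permutation test of 3 against 3 libraries can give a p under 0.1. Exon lengths come from GENCODE and promoters from RefSeq. The tests were checked on simulated counts. The alternatives were DESeq2 1.42.0, voom of limma 3.58.1, RLE factors, scaling by total counts, another filter (none, or 10 counts in each library), the replicate block, and leaving out each library. Gene lists were described by counts and medians, without a set test.

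Members with an FDR under 0.05 or a mean of at least 5 CPM are given in full, apart from a few genes of the members and lists that are not reported here, and all others by group means or counts. Of the signalling and marker lists, called genes are named, with the same exception. Other genes of these lists, the sums without 1 gene and the ratios of Ccr2 to marker sums were picked after their values were seen. The members, lists and tests were chosen with earlier results of these data known.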

Additional observations from a re-analysis of the deposited data

How the results depend on the processing

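Counts of calls moved with the setting. DESeq2 called 5 members higher, 4 of them past 2-fold, and no filter on counts gave the same numbers, while limma-voom put 2 past 2-fold. In either direction, DESeq2 called 6 of 26 tested members and 16.8% of all tested genes. Without a count filter, edgeR called 6 of 50 members and 6.73% of all tested genes. For limma-voom it was 4 of 26 members and 9.03% of all tested genes. Scaling by total counts gave 0 lower members. Over all genes, DESeq2 called 1604 higher and 1708 lower, and total counts 1175 higher and 674 lower, with the median log2 fold change moving from 0.01 to 0.09. Of the signalling list, 10 were higher by DESeq2 and 3 by limma-voom. The DESeq2 counts of the marker lists were 5 macrophage, 4 dendritic cell, 3 fibroblast and 2 basal cell genes higher, and 2 principal cell, 1 adipocyte and 3 blood genes lower. Without a count filter they were 3 macrophage, 3 dendritic cell, 2 T and NK cell, 2 fibroblast and 2 basal cell genes higher, and 2 principal cell and 3 blood genes lower. Total counts gave 2 macrophage, 3 dendritic cell and 2 basal cell genes higher. With at least 10 counts in every library, 2 basal cell genes were higher, and 0 T and NK cell and 0 eosinophil and mast cell genes. The cause was not tested.

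Deviations from the group means correlated at -0.0525, -0.0315 and -0.00256 between libraries of the same replicate number. With 3 libraries per group this cannot show whether they were paired, and the study's methods speak of 3 pairs of mice. With the replicate block, 10 of all genes were higher and 31 lower, 0 members and 0 signalling genes were called in either direction, and 0 genes of the neutrophil, T and NK cell, B and plasma cell, eosinophil and mast cell, fibroblast, principal cell, clear cell, basal cell and blood lists. At an unadjusted p under 0.05 the block left 7 members (26.9%), against 24.4% of all tested genes.

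With each library left out in turn, all genes ran from 4 to 782 higher and from 19 to 944 lower, with the lowest counts without WT replicate 1. Members ran from 0 to 4 higher, from 0 to 3 past 2-fold and from 0 to 1 lower, and signalling genes from 0 to 7 higher and from 0 to 1 lower. Higher calls ran from 0 to 7 for macrophages, from 0 to 3 for dendritic cells and for T and NK cells, from 0 to 4 for fibroblasts, from 0 to 2 for mast cells and basal cells, and from 0 to 1 for B cells, principal cells and sperm. Lower calls ran from 0 to 3 for clear cells, from 0 to 2 for principal cells, and from 0 to 1 for neutrophils, adipocytes and blood.

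Uncalled members with a log2 fold change near 0 changed sign with the library left out, over ranges from -0.22 to 0.25 for Ccl6, from -0.54 to 0.94 for Ccl7, from -0.17 to 0.38 for Ccl9, from -0.20 to 0.22 for Ccl11, from -0.04 to 0.22 for Ccl25, from -0.20 to 0.49 for Cxcl13 and from -0.22 to 0.13 for Ccr1. Without Ocln-KO replicate 3, Ccl6 was -0.22, Ccl9 -0.17 and Ccr1 -0.22, and without WT replicate 3, Ccl6 was -0.05, Ccl9 -0.04, Cxcl13 -0.20 and Ccr1 -0.001. Without Ocln-KO replicate 1, Ccl11 was -0.20 and Ccl25 -0.04, without WT replicate 2, Ccl11 was -0.16, and without Ocln-KO replicate 2, Ccl7 was -0.54. By limma-voom, Ccl11 was -0.01 and Ccr1 -0.003, and with the replicate block Ccr1 was -0.01. Depth limits the 24 members that had counts but could not be tested.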

Other observations

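Marker lists of cells that are not leukocytes are given here as values. Of 5 tested clear and narrow cell markers, edgeR called 3 lower in Ocln-KO, Foxi1, Atp6v1b1 and Atp6v0d2, with log2 fold changes of -0.77, -0.78 and -1.56. Of 8 tested principal cell markers, Gpx5 was called higher (6.12) and Aqp9 lower (-0.46). Gpx5 varied widely, with 54.5, 172 and 26.3 CPM in WT against 256, 7264 and 10039 CPM in Ocln-KO. Lcn8, Lcn9, Cst8 and Rnase10 of the same list had at most 2.3 CPM in any library. Whether the libraries held the regions of the epididymis in equal parts was not tested, and this limits every comparison of the genotypes here. Krt14 among 6 basal cell markers (0.58) and Myh11 among 10 fibroblast and smooth muscle markers (0.77) were called higher. Of 5 blood markers, all were below 0 and Alas2 was called lower (-1.99), with list sums from 21.9 to 49.6 CPM in WT and from 6.04 to 13.2 CPM in Ocln-KO. edgeR called 0 of 10 endothelial and lymphatic markers (2 at an unadjusted p under 0.05, 0 by DESeq2), 0 of 6 adipocyte markers (3 at an unadjusted p under 0.05, 1 by DESeq2, lower) and 0 of 8 spermatid and sperm markers (0 at an unadjusted p under 0.05, 0 by DESeq2). The spermatid and sperm markers summed to between 311 and 396 CPM in WT and to 425, 440 and 101 CPM in Ocln-KO, so that Ocln-KO replicate 3 was low for sperm RNA and high for the CC and CXC receptors.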
